A study of Triticum aestivum with 12 samples.

Results

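The winter wheat varieties Xindong20 and Xindong23 were compared in seedling roots held at low phosphorus (LP) and under drought. The comparison used 3 arrays of each variety, which are 6 of the 12 arrays in the series, and the arrays were chosen by their labelled variety and phosphorus level alone. At LP the Hoagland solution held phosphorus at 0.05 mmol/L, with potassium chloride in place of part of the potassium phosphate. After 14 days of culture, 15% PEG-6000 was added to the solution for 7 days. The remaining 6 arrays, 3 of each variety, came from conventional phosphorus (CP, 1.0 mmol/L) with the same PEG treatment, so every plant was under drought and no well-watered plants were analysed here. The series design calls the 3 arrays of a group biological replicates. The labels do not say whether a sample was 1 plant or a pool, so the p-values measure the spread between these samples.

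Phosphate moves poorly through soil, and plants that lack it are known to reshape their roots, release phosphate from organic sources and raise the amount of phosphate transporters. PEG-6000 lowers the water potential around the root and serves as a stand-in for dry soil, and dehydrins and other protective proteins commonly accumulate under such stress. Bread wheat carries several related subgenomes, so the near-identical copies of a gene, called homoeologs, can bind the same probes. Each probe set of the array is a group of short oligonucleotides that reads a stretch of transcript, and its signal is given as a log2 intensity. A variety that differs in sequence under the probes and a variety that differs in RNA level cannot be told apart by such a signal. In whole roots, fewer cells of a type and less RNA per cell cannot be told apart either.

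The LP arrays numbered 3 stood apart from the other 10 arrays in both varieties. Their scores on the leading principal component (34.7% of the variance) were 173.8 in Xindong20 and 123.3 in Xindong23, while the others scored between -79.5 and 14.3. Their ubiquitin controls were brighter at the 3' than at the 5' end, by 2.84 and 1.16 on the log2 scale, against values from -0.88 to -0.19 on the other arrays. The poly-A control RNAs averaged 4.85 ± 0.91 (SD, n = 3) at LP in Xindong20 and 5.37 ± 0.97 (SD, n = 3) in Xindong23, and these ranges overlapped. At CP the same controls averaged 7.09 ± 0.54 and 6.88 ± 0.23 (SD, n = 3 each). The median SD between replicates was 0.335 and 0.262 at LP and 0.181 and 0.133 at CP, for Xindong20 and Xindong23. The results below are therefore given from a fit of group means over all 12 arrays and again without both LP arrays numbered 3. Their part in any single result was not tested beyond that.

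The varieties differed at 550 of 61179 probe sets at LP, which is 0.899% of those tested with limma at an adjusted p under 0.05 (called, below). Xindong20 was higher at 349 of them (0.57%) and Xindong23 at 201 (0.329%). Without both LP arrays numbered 3 there were 843 (1.38%), of which 533 were higher in Xindong20 (0.871%) and 310 in Xindong23 (0.507%). The 438 probe sets called in both fits made up 79.6% of the first set and 52.0% of the second. None of the probe sets called in either fit changed sign between them. At an unadjusted p under 0.05 there were 5077 probe sets (8.3%), where 3059 would be reached by chance if no probe set differed. In the smaller fits, 876 were called without the Xindong20 array numbered 3 alone, and 127 were called from the 6 LP arrays alone, with fewer arrays to estimate the spread.

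The median measured difference was 2.14 on the log2 scale, or 4.42-fold, where Xindong20 was higher, with quartiles of 1.39 and 3.10. Where Xindong23 was higher it was 1.93, or 3.81-fold, with quartiles of 1.34 and 2.99. A measured log2 difference of at least 1 was reached by 504 of the 550, of at least 4 by 61 (37 higher in Xindong20, 24 in Xindong23) and of at least 6 by 13 (10 and 3). The 3 arrays of each variety did not overlap at any of the 550, which were selected for separation, and at 9.48% of all probe sets tested. Over all probe sets the median variety difference at LP was -0.02. The deposited arrays have nearly equal medians, so a shift of most transcripts could not be seen in these values.

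Many of the differences ran across a limit set here, with 1 variety above it and the other below. The limit is not a measured background. A group mean below 4.26, the median of the array medians, is called dim here, and a mean at or above it bright. Xindong20 alone was bright at 147 of the 550 called probe sets and Xindong23 alone at 79, so 226 (41.1%) went from bright to dim. Over all probe sets tested the share was 4.32%. The classes were set from the same LP means that the test compares, so these shares are a description and nothing is read from the contrast between them. The median measured difference was 2.91 in each of the classes bright in a single variety and 1.78 among the 293 called probe sets bright in both. A stricter reading asked that all 3 arrays of 1 variety lie above their own array medians and all 3 of the other below. It left 122 called probe sets in Xindong20 and 61 in Xindong23. With the limit set at the 40th or 60th percentile of the arrays, a choice made after seeing the data, the share from bright to dim was 34.2% and 46.5%.

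**Figure D1:**
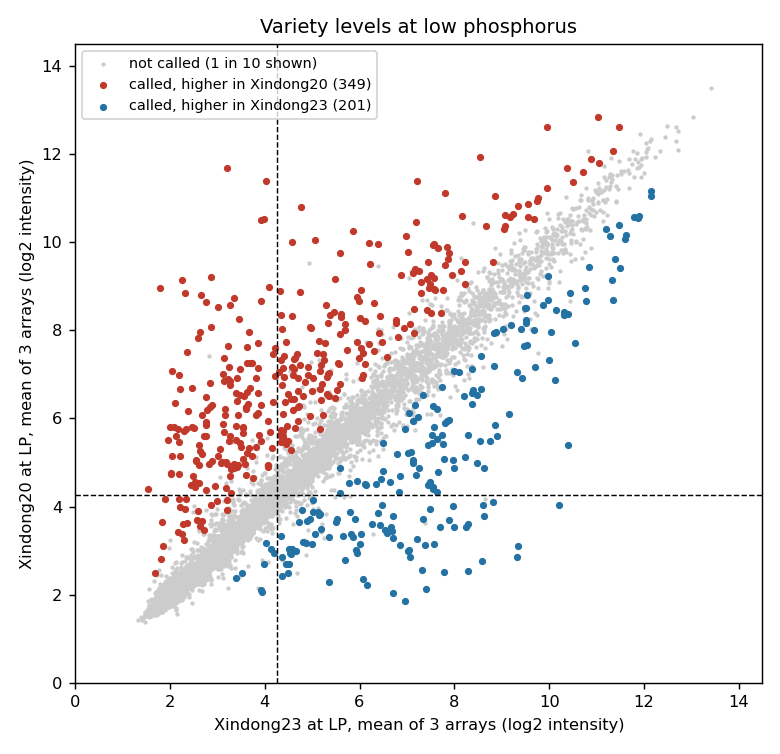
Mean log2 intensity of 3 arrays at LP in Xindong23 (horizontal axis) and Xindong20 (vertical axis) for each probe set. Red points are the 349 called higher in Xindong20, blue points the 201 called higher in Xindong23, grey points a sample of the others, and dashed lines mark the dim limit of 4.26. Red points in the field at upper left and blue points in the field at lower right are the 226 that went from bright to dim.

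Few of these probe sets can be given a gene. The platform annotation paired 1273 probe sets with exactly 1 of 771 genes, 200 of them with 1 of 102 genes that carry a descriptive name, and left 59906 unnamed here. Of the 550 called, 546 were unnamed and 4 had only a locus number, which is 0.314% of the annotated probe sets. Limma called 0 of the 200 with a descriptive gene name in the 12-array fit, against 0.899% of all tested. An unadjusted p under 0.05 was reached by 23 of the 200 (11.5%), against 8.3% of all tested. The mean over all 12 arrays lay above the dim limit at 68.6% of the annotated probe sets, against 50.8% of all probe sets.

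The largest difference was at the unnamed probe set Ta.5824.2.S1_at. It read 11.37, 11.88 and 11.79 in Xindong20 at LP and 3.66, 2.51 and 3.42 in Xindong23. The Xindong20 arrays were among the bright signals and all 3 Xindong23 arrays were dim. The difference was 8.49 ± 0.33 (SE, log2; adjusted p = 2.03e-06), or at least 171-fold with the dim arrays set to the dim limit. Its companion Ta.5824.2.S1_x_at, designed on the same sequence, differed by 7.35 (adjusted p = 7.65e-06). Without both LP arrays numbered 3 the first differed by 8.54, and at CP by 8.02 (adjusted p = 2.15e-06).

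The largest measured differences in the other direction, among unnamed probe sets called in both fits, were at 2 probe sets. Ta.1912.1.S1_at read 2.79, 2.85 and 2.95 in Xindong20 and 11.39, 8.03 and 8.56 in Xindong23. The Xindong23 arrays were all bright but lay far apart, and the Xindong20 arrays were all dim. The difference was -6.46 ± 0.68 (SE, log2; adjusted p = 0.000896), at least 33.5-fold, and -5.58 at CP. It did not pass with the 6 LP arrays alone (adjusted p = 0.0994). Ta.1151.1.S1_at read 3.21, 2.84 and 3.27 in Xindong20 and 9.43, 10.67 and 7.91 in Xindong23. Again the varieties did not overlap, with a difference of -6.23 ± 0.58 (SE, log2; adjusted p = 0.00042), at least 33.8-fold, and -6.47 at CP.

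The 4 called probe sets with a locus number are named here after their values were seen, and the sources used here give none of them a role. LOC543418 read 8.88, 8.78 and 9.76 in Xindong20 and 1.85, 2.04 and 2.91 in Xindong23 on Ta.10508.2.S1_a_at. All Xindong23 arrays were dim, and the difference of 6.87 ± 0.32 (SE, log2; adjusted p = 4.62e-06) was at least 29.3-fold. It was 5.998 at CP (adjusted p = 9.07e-06). The other probe set of this gene, Ta.24991.1.S1_x_at, was bright in both varieties and differed by -0.00 ± 0.38 (SE, log2) at LP, so the probe sets of this gene disagreed.

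LOC543085 read 12.62, 12.82 and 12.37 in Xindong20 and 10.83, 8.995 and 10.01 in Xindong23 on Ta.5610.1.S1_at. It was bright in both, with Xindong20 higher by 2.66 ± 0.40 (SE, log2; adjusted p = 0.00986), or 6.33-fold, and by 1.35 at CP, which did not pass (adjusted p = 0.112). The difference between the phosphorus levels, 1.32 ± 0.56 (SE, log2), did not pass either (adjusted p = 0.332). LOC542790, read by Ta.2793.1.S1_at, was lower in Xindong20, at 5.45, 5.62 and 6.32 against 7.45, 7.37 and 7.88. Its difference was -1.77 ± 0.28 (SE, log2; adjusted p = 0.0129) and its value at CP was -0.66 (adjusted p = 0.245). LOC542796, read by Ta.14281.1.S1_at, was at 5.82, 4.05 and 6.58 in Xindong20 and at 8.09, 8.80 and 9.36 in Xindong23. Its difference of -3.27 ± 0.65 (SE, log2) lay at the threshold (adjusted p = 0.0499) and missed it without both LP arrays numbered 3 (-3.51, adjusted p = 0.0525).

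**Figure D2:**
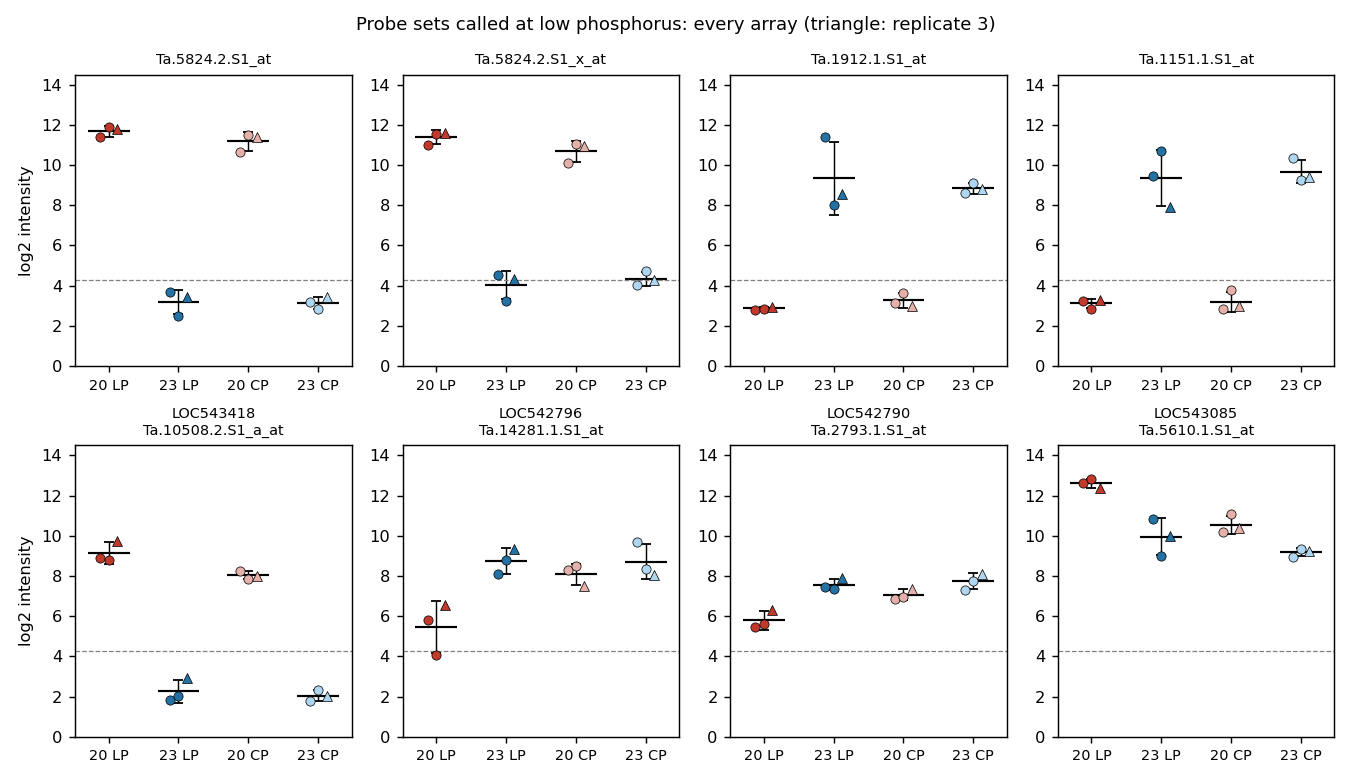
Log2 intensity of every array for 4 unnamed probe sets (top) and the 4 called probe sets with a locus number (bottom), by variety (20, 23) and phosphorus level. Bars show mean and SD of 3 arrays, triangles are the replicates numbered 3 and the dashed line is the dim limit of 4.26. In the top row 1 variety lay near or below the dim limit on all its arrays at both phosphorus levels.

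Called probe sets designed on the same sequence moved together. The 550 came from 512 distinct sequences in 492 clusters of related transcripts, as read from the array's own probe set names. At all 36 sequences with more than 1 called probe set, the calls had the same direction. Such probe sets were designed on the same sequence, so they are not independent readings. Of the 53 uncalled probe sets that share a sequence with a called set, 50 had its sign. Of 53 clusters with more than 1 call, 2 held calls in both directions, and they are named here for that reason. The 53 include clusters whose calls were all on 1 sequence, so agreement between different sequences was not counted.

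In the cluster Ta.14571, Ta.14571.1.S1_at read 8.10, 7.76 and 8.90 in Xindong20 and 2.88, 3.34 and 4.14 in Xindong23. Ta.14571.2.A1_at read 3.02, 3.47 and 3.32 in Xindong20 and 6.45, 7.20 and 7.96 in Xindong23. Each variety was thus bright on the member of the cluster where the other was dim. The differences were 4.80 (adjusted p = 8.67e-05) and -3.93 (adjusted p = 0.000114), and 4.78 and -4.06 at CP. In the cluster Ta.14543, Ta.14543.1.S1_a_at was higher in Xindong20 by 1.03 (adjusted p = 0.0136). Ta.14543.2.A1_at was lower there by -4.25 (adjusted p = 6.13e-06) and Ta.14543.2.A1_x_at by -2.09 (adjusted p = 0.0061). All 5 probe sets of both clusters were called in the same direction at CP.

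Calls were spread unevenly over the kinds of probe set. Those named Ta were called in 1.28% of cases (401 of 31438) and those named TaAffx in 0.502% (149 of 29677). The Ta group was also brighter. The mean over all arrays of the series lay above the dim limit at 65.4% of its probe sets, against 35.4% of the TaAffx group. Among the probe sets with such a mean above the limit, the shares called were 1.62% and 1.01%. Of the 64 reporter probe sets on the array, limma called 0, and 1 had an unadjusted p under 0.05.

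Most of the larger variety differences at LP were also present at CP, which rests on separate arrays but on the same estimate of spread per probe set. At CP 1438 probe sets were called (2.35%), 547 higher in Xindong20 (0.894%) and 891 in Xindong23 (1.46%). Of the 550 called at LP, 298 were called at CP, which is 54.2% of the LP calls and 20.7% of the CP calls. The direction was the same at 291 (172 higher in Xindong20, 119 in Xindong23) and opposite at 7. The sign of the measured difference was the same at 444 of the 550 (80.7%), against 47.3% of all probe sets tested. Across the 550, which are not independent replicates and were selected on the LP value, Pearson's r between the differences was 0.881. Across all probe sets it was 0.346.

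Agreement with CP rose with the size of the LP difference. Of the 46 called probe sets with a log2 difference under 1, 3 (6.52%) were called the same way at CP. Of the 221 between 1 and 2 there were 86 (38.9%), of the 222 between 2 and 4 there were 146 (65.8%), and of the 61 at 4 or more there were 56 (91.8%). The median difference at CP, signed as at LP, was 0.09, 0.66, 2.22 and 4.82 in these 4 size classes, beside 0.87, 1.51, 2.76 and 4.89 at LP. The sign at CP was that at LP for 25 of the 46, 160 of the 221, 198 of the 222 and all 61, so the median near 0 in the smallest class was over members of both signs. The share called again without both LP arrays numbered 3 also rose by size, at 50%, 69.2%, 91.4% and 96.7%.

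The share called again at CP is given by class, which also differed in size, and the classes were not tested against each other. Of the 147 bright in Xindong20 alone 103 (70.1%) were called the same way at CP, and of the 79 bright in Xindong23 alone 66 (83.5%) were. Of the 293 bright in both 112 (38.2%) were, and of the 31 dim in both 10 (32.3%) were. The bright or dim class itself was kept at CP by 108 of the 147, 68 of the 79, 277 of the 293 and 24 of the 31. At the 291 called the same way the median ratio of the CP to the LP difference was 1.01, and the LP difference was the larger at 140. Of the 252 not called at CP, 153 had the same sign there. Without both LP arrays numbered 3, where 10.2% of all probe sets were called at CP, 491 of the 843 (58.2%) were called the same way there and 32 the opposite way.

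**Figure D3:**
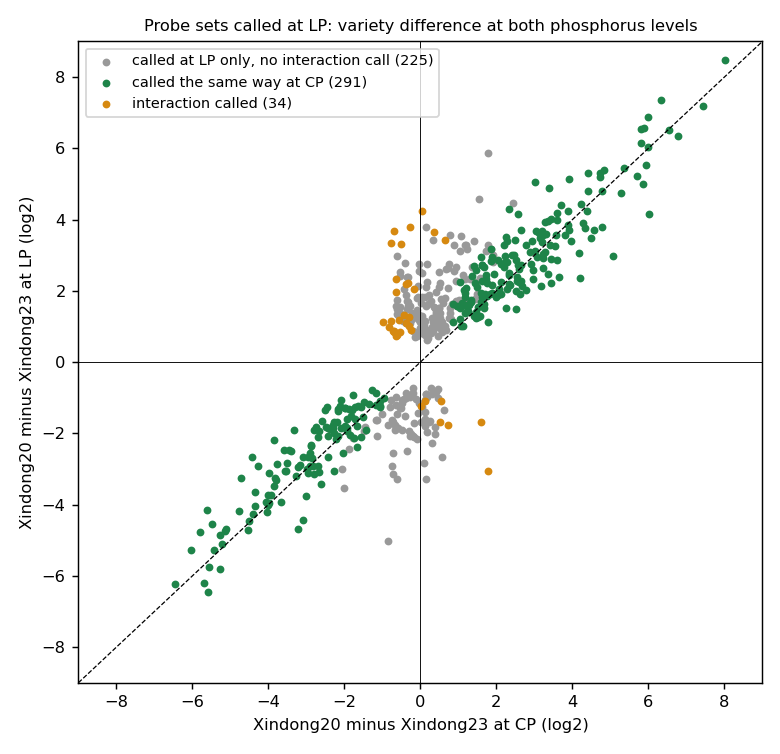
Difference between Xindong20 and Xindong23 on the log2 scale at CP (horizontal axis) and LP (vertical axis) for the 550 probe sets called at LP. Green points are the 291 called the same way at CP, orange points the 34 whose difference changed between the phosphorus levels and grey points the other 225, with the dashed line at equal values. Most points far from 0 lie near the dashed line, and orange points lie near the vertical axis or across it.

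The variety difference itself differed between LP and CP at 81 probe sets (0.132%), of which 69 (0.113%) had the more positive value at LP and 12 (0.0196%) the more negative. Among them 34 were also called at LP, which is 6.18% of the LP calls and 42.0% of the interaction calls. Xindong20 was higher at LP at 27 of the 34 and lower at 7. The LP difference is part of the interaction, so its size there is only a description. It was the larger of the 2 differences at all 34, and the CP difference had the opposite sign at 31. Xindong20 moved more than Xindong23 between CP and LP at 32 of the 34, upwards at 25. The median measured move was 1.74 in Xindong20 and 0.43 in Xindong23. The 34 were selected on contrasts of these same group means, so the moves too are only a description. Their share over all probe sets is not given here. In the fit without both LP arrays numbered 3, where 571 interactions were called (0.933%), 25 of the 34 were again called in both tests, and 151 of the 843 LP calls (17.9%) had an interaction.

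The most positive interaction was at the unnamed Ta.2870.2.S1_at. It read 8.76, 9.46 and 9.27 in Xindong20 at LP against 4.41, 4.80 and 4.77 at CP. In Xindong23 it read 4.95, 5.85 and 5.63 at LP and 5.44, 5.05 and 5.56 at CP. Only the Xindong20 LP arrays stood above the rest, without overlap. The variety difference was 3.68 ± 0.26 (SE, log2; adjusted p = 6.55e-05) at LP, or 12.9-fold, and -0.69 (adjusted p = 0.204) at CP. The interaction was 4.38 ± 0.37 (SE, log2; adjusted p = 0.00569) and passed under all 13 alternatives tried. None of these left out a CP array.

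TaAffx.53825.1.S1_at read 5.55, 5.88 and 7.60 in Xindong20 at LP and was dim on every other array, at 1.84 to 2.68. At LP it was at least 4.23-fold higher in Xindong20 (measured difference 4.24, adjusted p = 0.000888), and the interaction was 4.18 ± 0.63 (SE, log2; adjusted p = 0.0455). Its highest array was the one numbered 3, and without both such arrays the interaction was 3.62 (adjusted p = 0.0263). The interaction passed under 5 of 12 alternatives.

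The most negative interaction was at TaAffx.67846.1.A1_at, which was lower in Xindong20 than in Xindong23 at LP. It read 4.77, 4.97 and 6.70 in Xindong20 and 8.57, 8.31 and 8.74 in Xindong23 at LP. At CP it read 8.81, 8.53 and 8.23 in Xindong20 and 7.69, 6.41 and 6.16 in Xindong23. The order of the varieties was thus reversed at CP in the measured values. The LP difference was -3.06 ± 0.51 (SE, log2; adjusted p = 0.0191), the CP difference was 1.77 (adjusted p = 0.105) and the interaction was -4.83 ± 0.72 (SE, log2; adjusted p = 0.0455), passing under 6 of 13 alternatives.

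Ta.135.2.S1_at read 10.25, 9.05 and 9.54 in Xindong20 at LP and 11.26, 11.45 and 11.48 in Xindong23. At CP it read 11.53, 11.53 and 11.65 in Xindong20 and 10.74, 10.87 and 10.89 in Xindong23. The Xindong20 LP arrays were the lowest of all 12. The differences were -1.78 ± 0.24 (SE, log2; adjusted p = 0.00557) at LP and 0.74 (adjusted p = 0.15) at CP. The interaction of -2.52 ± 0.34 (SE, log2; adjusted p = 0.0351) passed under 8 of 13 alternatives.

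**Figure D4:**
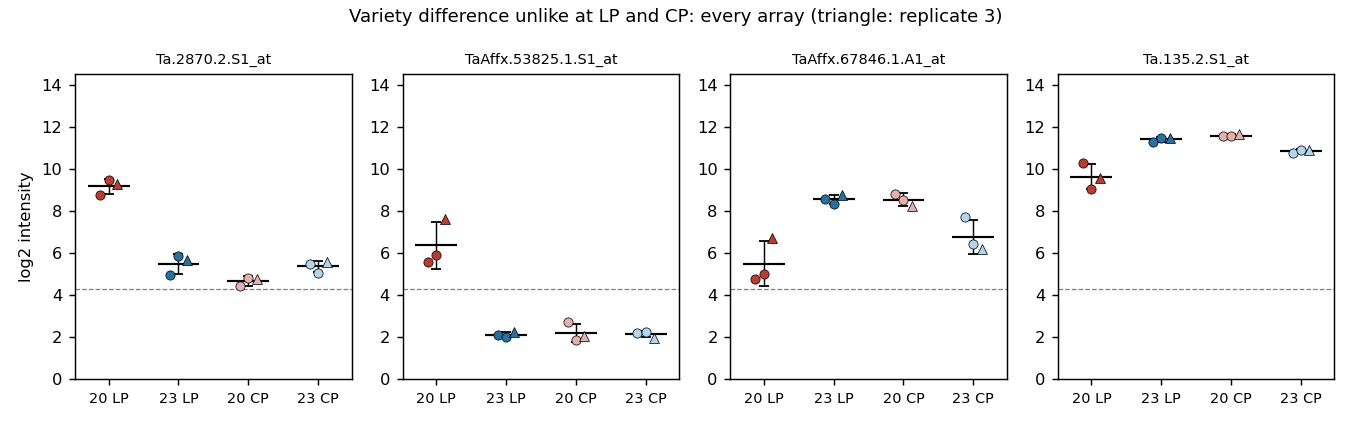
Log2 intensity of every array for the 4 unnamed probe sets with the most positive and most negative interaction that were called in both fits, by variety (20, 23) and phosphorus level. Bars show mean and SD of 3 arrays, triangles are the replicates numbered 3 and the dashed line is the dim limit of 4.26. In each panel the Xindong20 LP arrays stand apart from the Xindong20 CP arrays.

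Among the genes with a descriptive name, those with the smallest p are given as values, since none passed in the fit of group means over all 12 arrays. Some passed under other settings, H2A-9 under 7 of 17, rbcl under 6, PCM under 4 and SAHH under 3. The histone H2A gene H2A-9, which encodes a core protein of chromatin, read 10.01, 6.44 and 7.06 in Xindong20 and 3.63, 3.77 and 4.01 in Xindong23 on Ta.27657.14.S1_s_at. The varieties did not overlap, but the Xindong20 arrays spread widely. The difference was 4.03 ± 0.82 (SE, log2; adjusted p = 0.0586), against 0.87 at CP. Over the 17 alternatives its adjusted p ran from 0.00577 to 0.428, and it was 0.0492 with a trended variance. The 6 probe sets of this gene, which has near-identical copies, ranged from -0.93 to 4.03, with 3 positive and 3 negative, so they disagreed.

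SAHH, S-adenosylhomocysteine hydrolase of the methyl cycle, read 12.70, 12.14 and 11.97 in Xindong20 and 12.99, 13.22 and 13.26 in Xindong23 on Ta.1258.1.S1_a_at. The varieties did not overlap. The difference was -0.89 ± 0.18 (SE, log2; adjusted p = 0.0528), against 0.14 at CP, and -1.18 on its other probe set. Without both LP arrays numbered 3 it was -0.69 (adjusted p = 0.164), and with a trended variance it passed (adjusted p = 0.0422). Its adjusted p ran from 0.00545 to 0.578 over the 17 alternatives.

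GSTZ1, a zeta class glutathione transferase, read 6.55, 7.64 and 7.48 in Xindong20 and 5.92, 5.05 and 6.29 in Xindong23 on TaAffx.56524.1.S1_at. Its difference was 1.47 ± 0.35 (SE, log2; adjusted p = 0.117), and its 3 probe sets ranged from 0.57 to 1.47. The arrays of the varieties lay close to each other but did not overlap on the first of these. The translation initiation factor Eif4B had a difference of -0.55 (adjusted p = 0.188) and the catalase CAT1, which breaks down hydrogen peroxide, -0.64 (adjusted p = 0.234). For CAT1 the varieties overlapped, Xindong20 was dim (mean 3.94) and the CP difference was 0.38. The other probe set of CAT1 differed by -0.16 at LP. The lactoylglutathione lyase lgul was dim in both varieties (adjusted p = 0.0971), so no fold is given.

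Without both LP arrays numbered 3, 9 annotated probe sets were called (0.707%, against 1.38% of all tested) and 1 of them had a descriptive gene name, rbcl. This is the chloroplast gene of the large Rubisco subunit, which fixes carbon dioxide in leaves. Its probe set TaAffx.128414.1.A1_x_at read 10.15, 10.19 and 8.94 in Xindong20 and 8.73, 9.16 and 7.98 in Xindong23. The array numbered 3 was the lowest in each variety, and with it the varieties overlapped. The difference was 1.23 without those arrays (adjusted p = 0.0493) and 1.14 with them (adjusted p = 0.335). With all arrays it also passed with a replicate block (adjusted p = 0.0225), and over the 17 alternatives its adjusted p ran from 0.00557 to 0.9999. The 28 probe sets of rbcl ranged from -0.55 to 1.14, with 17 positive and 11 negative. Beside rbcl and 3 locus numbers already given, the calls in that fit were LOC780661 on 1 of its 6 probe sets (0.75, the others from -0.28 to 0.18), LOC780636 on a pair of its 3 probe sets (1.63 and 0.95), LOC100037613 (0.87) and LOC606316 (-0.80). Their adjusted p-values lay between 0.0379 and 0.0493, and these loci were picked after their values were seen. Other genes with a descriptive name and the smallest p in that fit did not pass: PCM, a protein carboxyl methyltransferase, at 1.90 (adjusted p = 0.059), and TBP1, a TATA-binding protein, at -0.70 (adjusted p = 0.0806).

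**Figure D5:**
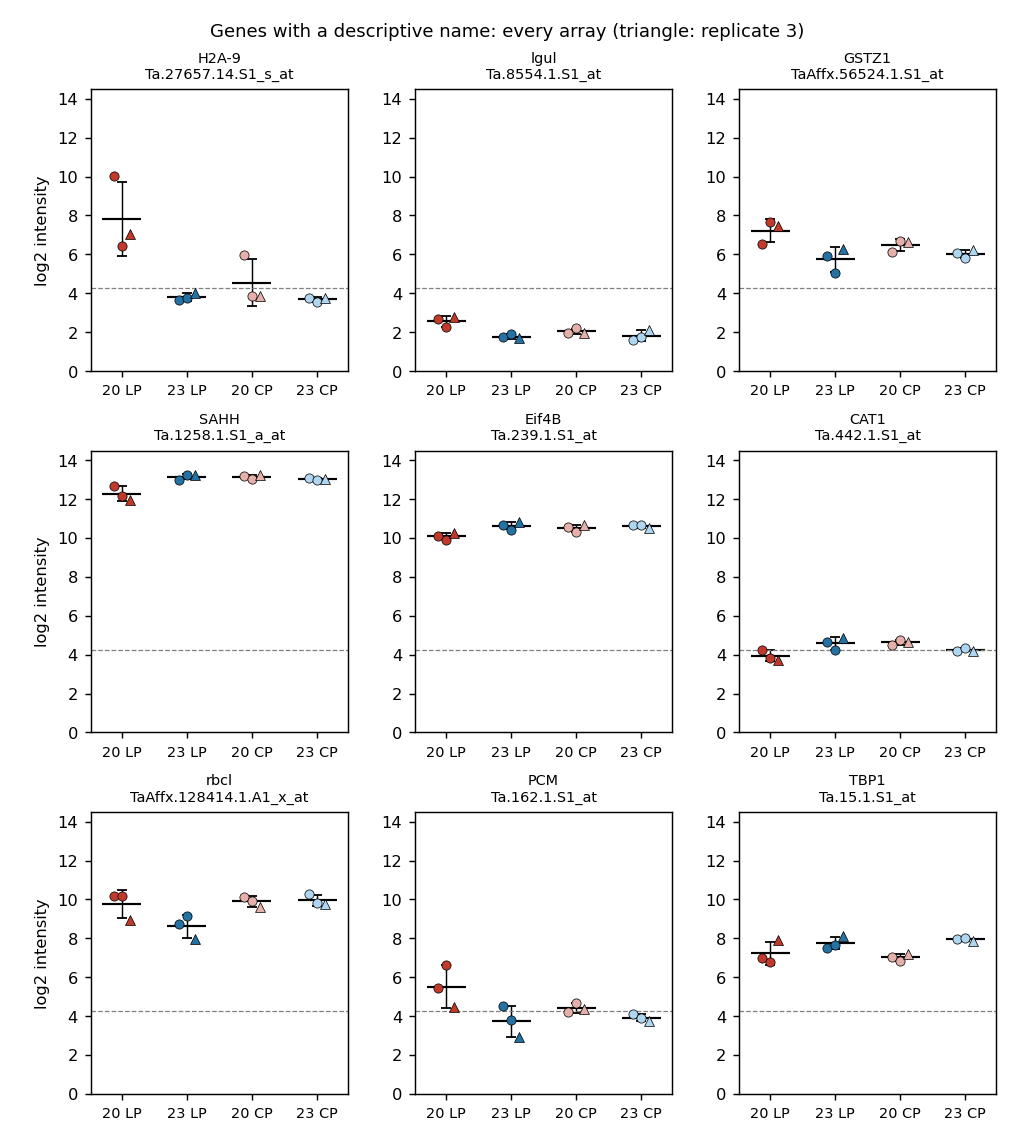
Log2 intensity of every array for 9 genes with a descriptive name, by variety (20, 23) and phosphorus level. Bars show mean and SD of 3 arrays, triangles are the replicates numbered 3 and the dashed line is the dim limit of 4.26. None of the 9 passed at LP in the fit of group means over all 12 arrays, and lgul was dim on every array.

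Of 21 gene lists for root, drought and phosphorus biology, 20 had annotated members, and limma called 0 of their 140 probe sets in the 12-array fit, against 0.899% of all tested. An unadjusted p under 0.05 was reached by 18 of these 140 (12.9%), against 8.3% of all tested. The phosphate starvation list, of transporters and phosphatases, had no named probe set, so the best known response to low phosphorus was not read here. Without both LP arrays numbered 3 only the photosynthesis list had a call, through rbcl. The median over all probe sets tested was -0.02.

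The dehydrins and late embryogenesis abundant proteins, which protect cells that lose water, had a median difference of 1.00 over 6 probe sets of 4 genes, with 5 positive and 0 at an unadjusted p under 0.05. The dehydrin gene rab read 4.87, 7.34 and 8.09 in Xindong20 and 3.36, 4.12 and 6.82 in Xindong23 on TaAffx.46097.2.S1_at. These arrays overlapped, and the difference of 1.998 did not pass (adjusted p = 0.64). COR410 was dim in both varieties.

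Histones showed the widest spread between replicates, with a median of -0.40 over 18 probe sets of 5 genes, of which 3 were positive. The mean of their levels was 9.66, 7.03 and 7.36 on the Xindong20 LP arrays and 6.76, 9.21 and 8.08 on the Xindong23 LP arrays. Replicate 1 was the highest of Xindong20 at 17 of the 18 probe sets and replicate 2 the highest of Xindong23 at 16. The varieties thus overlapped in mean histone level. At CP the mean lay between 5.55 and 6.91 in Xindong20 and between 6.63 and 7.49 in Xindong23. The cytoskeleton list of tubulins and profilin had a median of -0.33 over 12 probe sets, of which 2 were positive. The same 2 arrays were the highest of their variety at 11 and 7 of these 12.

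The pathogenesis-related list had a median of -0.19 over 5 probe sets, of which 1 was positive, and its 4 probe sets of LTP3 and Glc1 lay between -0.64 and -0.13. The positive member, PR5, a thaumatin-like protein, read 6.16, 8.14 and 7.74 in Xindong20 and 3.73, 4.51 and 5.33 in Xindong23. The varieties did not overlap, and the difference was 2.82 (adjusted p = 0.279) at LP and 2.76 at CP. The small heat shock gene hsp16.9A read 5.20, 5.95 and 6.15 in Xindong20 and 9.41, 6.04 and 7.54 in Xindong23. These arrays overlapped, with a difference of -1.89 (adjusted p = 0.47), and the other member of its list, FKBP70, differed by 0.14. The other lists had medians between -1.03 (SAHH alone) and 0.91 (GSTZ1 alone).

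The tissue was checked against markers of root, leaf and grain. The root marker DMAS1, an enzyme of phytosiderophore synthesis for iron uptake, read between 5.60 and 8.72 on the LP arrays over its 3 probe sets, and its mean over them was 6.37 to 7.84 in Xindong20 and 6.77 to 7.63 in Xindong23. The lectin gene WGA2, also set out as a root marker, read 3.65, 3.75 and 4.14 in Xindong20 and 3.78, 6.25 and 6.01 in Xindong23. The varieties overlapped (difference -1.50, adjusted p = 0.36). This marker was dim at LP in Xindong20 (mean 3.85). At CP it read 4.36, 4.19 and 4.24 in Xindong20 and 4.16, 3.82 and 3.88 in Xindong23, all near or below the dim limit. The leaf list averaged 3.24 to 3.41 in Xindong20 and 3.15 to 3.26 in Xindong23 over 34 probe sets, which is dim. Of the 34, 28 were probe sets of rbcl, so this average is mostly of 1 gene. In at least 1 variety 8 of the 34 were bright, among them probe sets of rbcl. The grain storage list averaged 3.35 to 3.76 and 3.37 to 3.83 over 22 probe sets, with 7 bright. Leaf and grain lists had medians of 0.06 and 0.03 and overlapped between the varieties. The remaining root markers set out for this check, such as the nicotianamine genes, were not analysed here.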

How the data were processed

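Root RNA of 12 samples was measured on 1 Affymetrix wheat array each. The authors deposited a table of normalized values, read here as log2 intensities from their range, since the log base is not stated. The submitters' processing notes name Affymetrix Expression Console 1.4.1 and RMA. The sources used here state neither the probe library nor a genome build, so no positions are printed. For arrays there is no read depth, and their number limits the precision. Array medians lay between 4.24 and 4.33, and LP arrays correlated at 0.899 to 0.975.

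The 111 control probe sets of 61290 were left out. Group means were fitted over all 12 arrays with limma 3.58.1 in R 4.3.3 (8 residual degrees of freedom, prior 2.28), or over 10 arrays without both LP arrays numbered 3 (6 residual, prior 2.53). Contrasts were Xindong20 minus Xindong23 at LP, the same at CP, and their difference (interaction), two-sided, with Benjamini-Hochberg adjustment over all probe sets. No detection calls were used, so dim means a group mean below 4.26. A fold against a dim group is given as a lower bound, with each dim array raised to that limit, and none is given where both are dim. The script was tested on simulated data.

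The members and gene lists were chosen with earlier results of these data known, and the patterns for histones, lectins, grain storage and pathogenesis-related genes were corrected after the symbols were read. Genes came from the platform annotation, with 770 of 771 matched to RefSeq (IWGSC CS RefSeq v2.1). Named were probe sets called with a descriptive gene name, up to 12 a direction in either fit, or else the 3 with the smallest p. The 2 unnamed probe sets with the largest difference in each direction that were called in both fits were named too. Locus numbers, interaction probe sets, the clusters with both directions and list members given as values were chosen after their values were seen. Alternatives were other variance models, array weights, normalizations, a filter on dim probe sets, replicate blocks, quality covariates, the LP arrays alone and leaving out each array.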

Additional observations from a re-analysis of the deposited data

Results flagged for a closer look

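The variety difference at LP differed from that at CP, by the interaction test itself, at 34 of the probe sets called at LP. Among the probe sets named for this test, the interaction was 4.38 at Ta.2870.2.S1_at, 4.18 at TaAffx.53825.1.S1_at, -2.52 at Ta.135.2.S1_at and -4.83 at TaAffx.67846.1.A1_at, all on the log2 scale as the LP minus the CP difference. The test for a single array far from its group was not made, since each group had 3 arrays.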

How the results depend on the processing

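The count of 550 at LP moved to 843 without both LP arrays numbered 3, 1177 with array weights, 127 with the 6 LP arrays alone, 938 with the poly-A controls as a covariate and 1793 with the ubiquitin difference as a covariate. The poly-A covariate also moved the share higher in Xindong20 from 63.5% to 52.7%. Other variance, normalization and filter settings gave 457 to 536, and leaving out 1 array gave 382 (Xindong23 replicate 2) to 876 (Xindong20 replicate 3). The CP count of 1438 moved to 6221 without both LP arrays numbered 3, 945 with a trended variance and 12120 with weights. It was 403 to 761 when any 1 of the 6 CP arrays was left out. Higher in Xindong20 at CP were 38.0%, 27.4% after median centring, 49.2% after quantile normalization and 50.7% with weights. The interaction count of 81 moved to 571, 14, 4208 and, with centring, 193 under the matching settings, and to 3 to 206 when any 1 of the 12 arrays was left out. Its positive share of 85.2% was 48.5% with weights and 67.7% after quantile normalization (65 called). It was also over 10 points from that share with the dim probe sets left out (73.7%) or with the replicate block (100%). The share of LP calls repeated at CP, 52.9%, ranged from 43.7 to 62.3 when 1 array was left out. The share from bright to dim, 41.1%, was 69.3% with the LP arrays alone, 23.6% with the ubiquitin covariate and 38.8 to 48.7 when 1 array was left out. The cause of these moves was not tested.

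Deviations of same-numbered arrays correlated at -0.137, 0.181 and 0.756 at LP and at -0.212, -0.108 and -0.083 at CP. Thus the LP arrays numbered 3 deviated together in both varieties, while the other same-numbered arrays showed little or no such pairing. With a replicate block 606 were called at LP (435 shared) and 9 in the interaction, and with the LP arrays alone and a replicate block 77 were called at LP, 68.8% of them from bright to dim. Over 491 values of named probe sets under alternatives, 396 kept their direction and stayed either called or uncalled, 49 lost the call, 46 gained one and 0 reversed. The 396 include values that were uncalled both in the fit over all arrays and under the alternative. They are therefore not a count of calls that were repeated. Ta.5824.2.S1_at, Ta.5824.2.S1_x_at, LOC543418 and Ta.2870.2.S1_at were called at LP under all 17 alternatives. Ta.1151.1.S1_at was called under 16, Ta.1912.1.S1_at and LOC543085 under 15, LOC542790 under 13 and LOC542796 under 7.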
